A study of Bos taurus with 9 samples.

Results

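MHC class I molecules carry peptides from inside the cell to its surface, where cytotoxic T cells and natural killer cells read them. The genes described here are BOLA, a bovine class I heavy chain, B2M, TAP1, TAP2, TAPBP, TAPBPL, ERAP1 and ERAP2. Every probe set of an Affymetrix bovine expression array that carried 1 of these symbols and no other was taken, which gave 10 probe sets of 8 genes among 24016 probe sets and 9155 named genes. B2M had 3 probe sets and the other genes 1 each.

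Peptides cut by the proteasome are pumped into the endoplasmic reticulum by the TAP1 and TAP2 transporter. There the chaperone tapasin (TAPBP) holds an empty heavy chain and B2M close to the transporter, the tapasin-related protein TAPBPL exchanges poorly fitting peptides, and the aminopeptidases ERAP1 and ERAP2 trim peptides to fit the groove. Type I interferons are known inducers of this pathway, and the conceptus of ruminants secretes 1 of them, interferon tau, as its pregnancy signal. In the sheep uterus, class I and B2M transcripts are known to rise in the stroma and deep glands in early pregnancy and to be low in the luminal epithelium.

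The cells came from the endometrium of 9 Holstein/Polish Black and White cows killed on cycle days 2 to 5. The separated cell types were plated together at 3 stromal to 1 epithelial cell and exposed for 6 h. The groups were LPA+IFNt, given 1e-06 M of the oleoyl form of lysophosphatidic acid (LPA, a signalling lipid that acts on G protein-coupled receptors) with 1000 antiviral units of interferon tau (IFNt, no volume stated), LPA, given the same lipid at the same dose, and Control, given phosphate-buffered saline. Each group had 3 arrays, 1 for each pool of 3 cows. With 9 cows and 9 pools some pools must share cows, and which cows went into which pool is not stated. Arrays of equal replicate number may therefore come from the same cows. The p-values measure the spread between these pools, unpaired unless a block is named. Where the replicate number was fitted as a block, they measure the spread that remains after the number is taken out. Cells given IFNt alone were not analysed here, and no value below separates IFNt from its combination with LPA.

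The interferon response genes stood apart in LPA+IFNt. ISG15, an interferon-stimulated ubiquitin-like protein, averaged 14.56 in LPA+IFNt, 8.64 in LPA and 7.93 in Control on the log2 scale. The antiviral GTPase MX1 averaged 12.81, 7.70 and 7.47 in the same order of groups. All 10 stromal and all 10 epithelial marker genes lay above 2.80, the highest value of the array's control probe sets for the bacterial gene trp, as did 5 of 12 leukocyte markers and 0 of 6 endothelial markers. The arrays held medians between 4.30 and 4.38, and arrays of a group correlated with r of 0.9965 or more over all probe sets.

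In LPA+IFNt against Control, 7 of the 10 probe sets rose and 0 fell at an adjusted p under 0.05 (limma, Benjamini-Hochberg over all 24016 probe sets). Over all probe sets 5.34% were called, 2.48% higher and 2.86% lower. The 7 were the 3 of B2M and those of TAP1, TAP2, TAPBP and TAPBPL. BOLA, ERAP1 and ERAP2 missed the threshold in the model that takes no account of the replicate number, and passed it when the replicate number of the labels was a block, which brought all 10 past the threshold where 8.68% of all probe sets were called. The median difference of the 10 was 0.73 on the log2 scale, with a range of 0.57 to 1.93, and the median over all probe sets was 0.02. The 3 LPA+IFNt arrays lay above the 3 Control arrays for each of the 10, where the groups lay apart for 23.1% of all probe sets. These are bulk values of a mixed culture, so a change in RNA per cell and a change in the share of a cell type cannot be told apart.

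**Figure D1:**
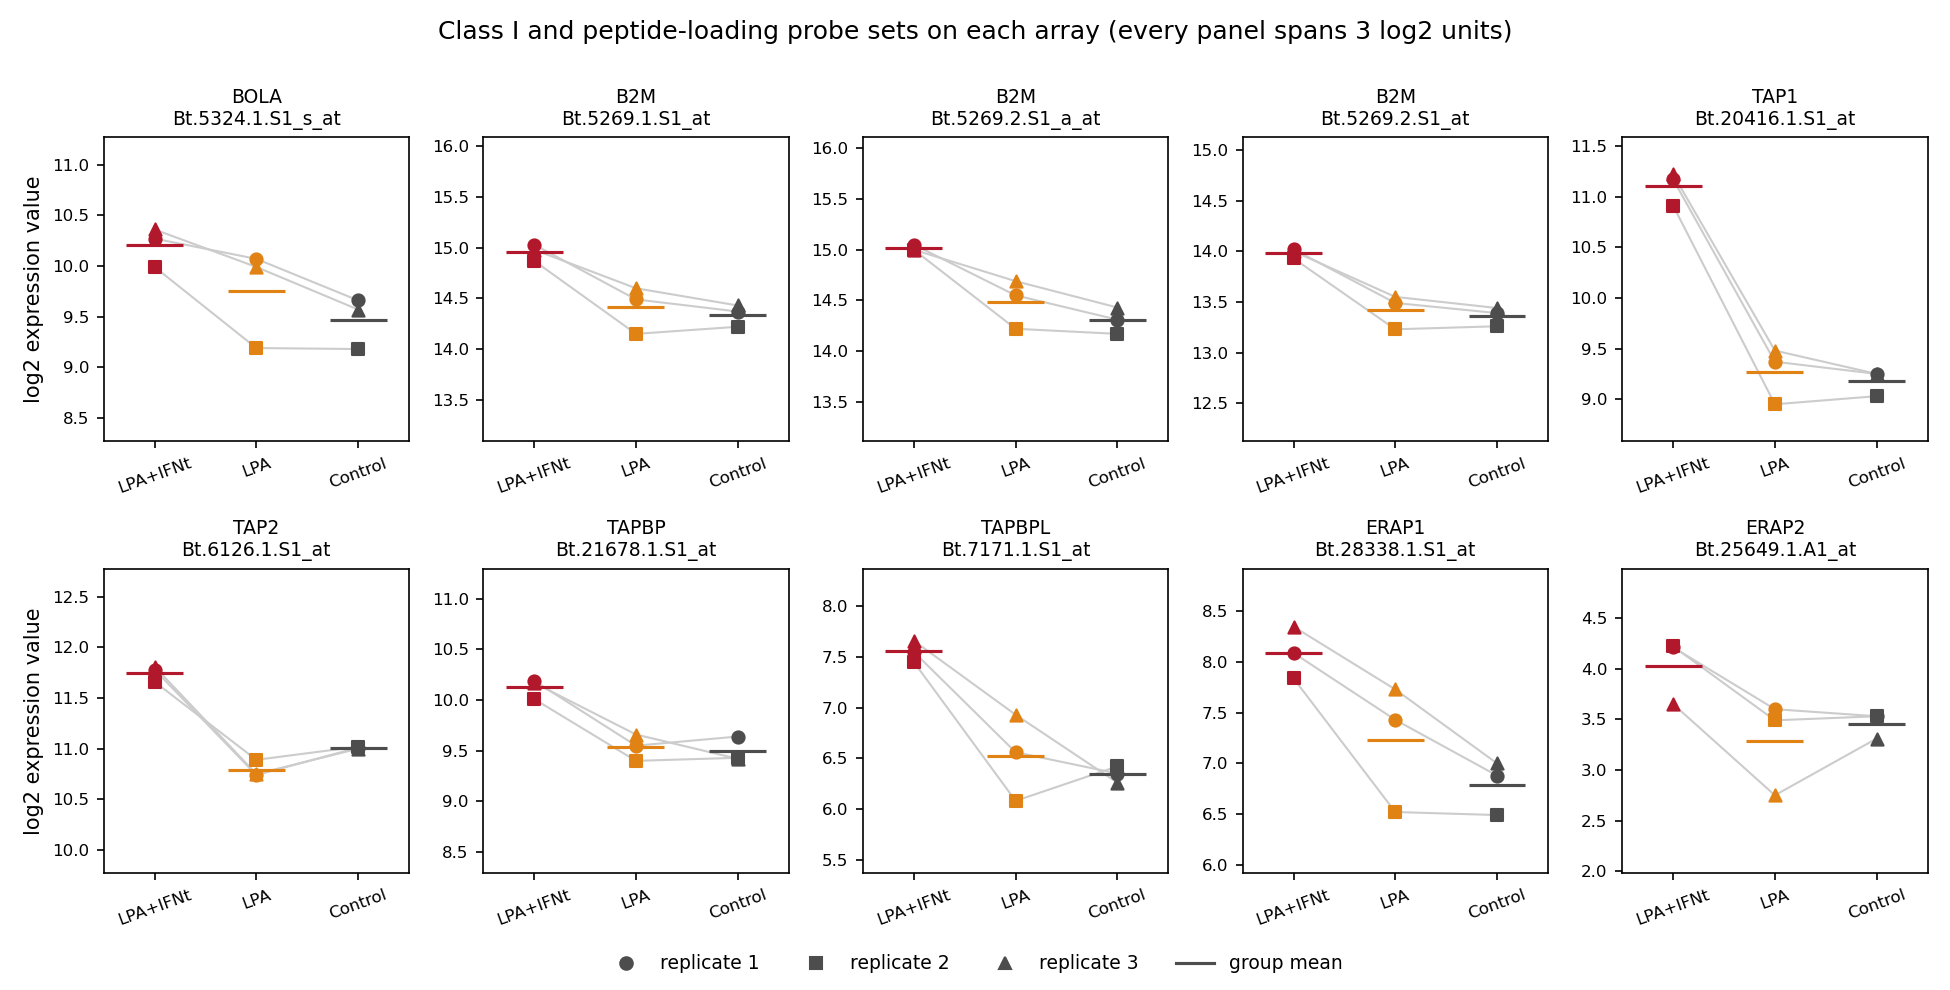
Log2 expression value (vertical axis) of each probe set on each array, with LPA+IFNt left, LPA in the middle and Control right. Symbols mark the replicate number, grey lines join arrays of equal number, short bars are group means (n = 3), and every LPA+IFNt point lies above every Control point of its panel.

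The transporter genes had the smallest adjusted p-values of the members. TAP1, a subunit encoded beside the immunoproteasome subunits, had 11.17, 10.91 and 11.22 in LPA+IFNt (replicates 1, 2 and 3), 9.37, 8.95 and 9.48 in LPA, and 9.25, 9.03 and 9.25 in Control. The LPA+IFNt arrays lay well apart from both other groups, and the LPA and Control arrays overlapped. TAP1 was higher in LPA+IFNt than in Control by 1.93 (standard error, SE, 0.15; 95% interval 1.58 to 2.27; adjusted p = 0.000251), which is 3.80-fold on the linear scale. It stood at rank 124 of 24016 probe sets from the highest difference.

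TAP2, the partner subunit of TAP1, had 11.78, 11.66 and 11.81 in LPA+IFNt, 10.74, 10.89 and 10.75 in LPA, and 11.01, 11.02 and 11.00 in Control. No group overlapped another, and the Control arrays lay within 0.02 of each other. TAP2 was higher in LPA+IFNt than in Control by 0.74 (SE 0.05; 95% interval 0.62 to 0.86; adjusted p = 0.000166), or 1.67-fold. The 95% intervals of the TAP1 and TAP2 differences did not overlap, and the difference between them was not tested. In the RefSeq annotation of the bovine ARS-UCD2.0 assembly, TAP1 lies directly between PSMB8 and PSMB9, and 3 genes, 2 of them protein coding, lie between TAP2 and TAP1.

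B2M, the light chain that every class I heavy chain needs to reach the surface, was bright on all arrays. The probe set whose name ends in 2.S1_a_at had 15.05, 15.00 and 15.00 in LPA+IFNt, 14.55, 14.22 and 14.69 in LPA, and 14.31, 14.17 and 14.43 in Control. The LPA+IFNt arrays lay above all others and within 0.06 of each other, and the LPA and Control arrays overlapped. The difference in LPA+IFNt against Control was 0.71 (SE 0.12, adjusted p = 0.0124). The probe set ending in 2.S1_at, with means of 13.98 ± 0.04 in LPA+IFNt and 13.36 ± 0.09 in Control (SD, n = 3 each), rose by 0.62 (SE 0.09, adjusted p = 0.00527). The probe set ending in 1.S1_at, with means of 14.96 ± 0.08 and 14.34 ± 0.11 in the same groups, rose by 0.62 (SE 0.12, adjusted p = 0.0235). The 3 probe sets thus gave close values for the gene. The highest value of any probe set on these arrays was 15.66, so B2M lay near the top of the scale, and whether this compressed its difference was not tested. The call of 1.S1_at was lost without Control replicate 1 (adjusted p = 0.074), Control replicate 2 (0.0911), LPA+IFNt replicate 1 (0.0817) or LPA+IFNt replicate 3 (0.0799) in limma. That of 2.S1_a_at was lost without Control replicate 2 (0.0516) or LPA+IFNt replicate 1 (0.0504), and that of 2.S1_at held with each array left out in turn.

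BOLA had 10.27, 9.99 and 10.36 in LPA+IFNt, 10.07, 9.19 and 9.99 in LPA, and 9.66, 9.18 and 9.57 in Control. The LPA+IFNt and Control arrays did not overlap, the LPA arrays overlapped with both, and replicate 2 was the lowest of each group. The difference in LPA+IFNt against Control was 0.74 (SE 0.25, 95% interval 0.17 to 1.32, adjusted p = 0.169). With the replicate number as a block the same difference had an adjusted p of 0.0199. Within replicates 1, 2 and 3 it was 0.62, 0.81 and 0.80.

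The peptide editors both rose. Tapasin (TAPBP) had 10.19, 10.01 and 10.17 in LPA+IFNt, 9.55, 9.40 and 9.66 in LPA, and 9.64, 9.43 and 9.42 in Control. LPA+IFNt lay apart from both other groups, which overlapped, and the difference from Control was 0.63 (SE 0.09, adjusted p = 0.00678). TAPBPL had 7.55, 7.45 and 7.66 in LPA+IFNt, 6.56, 6.08 and 6.93 in LPA, and 6.35, 6.42 and 6.26 in Control. Its LPA arrays spread to both sides of Control but stayed below LPA+IFNt. TAPBPL was higher in LPA+IFNt than in Control by 1.21 (SE 0.19, 95% interval 0.77 to 1.65, adjusted p = 0.0101), or 2.31-fold.

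The trimming aminopeptidases, like BOLA, missed the threshold against Control in the model without the replicate block. ERAP1 had 8.09, 7.84 and 8.35 in LPA+IFNt, 7.43, 6.52 and 7.73 in LPA, and 6.88, 6.49 and 7.00 in Control. The LPA+IFNt arrays lay above all others, and LPA replicate 2 stood below the other LPA arrays and within the range of Control. The difference in LPA+IFNt against Control, 1.30 (SE 0.31, 95% interval 0.58 to 2.02), was larger than that of any member but TAP1, yet its adjusted p was 0.0583. It was 0.00834 with the replicate block and 0.00904 without LPA replicate 2, and the difference within replicates 1, 2 and 3 was 1.21, 1.35 and 1.35.

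ERAP2, the neighbour of ERAP1 with no protein-coding gene between them in the same annotation, was dim. It had 4.21, 4.22 and 3.65 in LPA+IFNt, 3.60, 3.49 and 2.75 in LPA, and 3.53, 3.53 and 3.31 in Control. LPA replicate 3 lay below the highest trp control value of 2.80, and replicate 3 was the lowest array of each group, unlike the other members. The difference in LPA+IFNt against Control was 0.57 (SE 0.24, 95% interval 0.001 to 1.14, adjusted p = 0.298), with an adjusted p of 0.0453 with the replicate block.

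**Figure D2:**
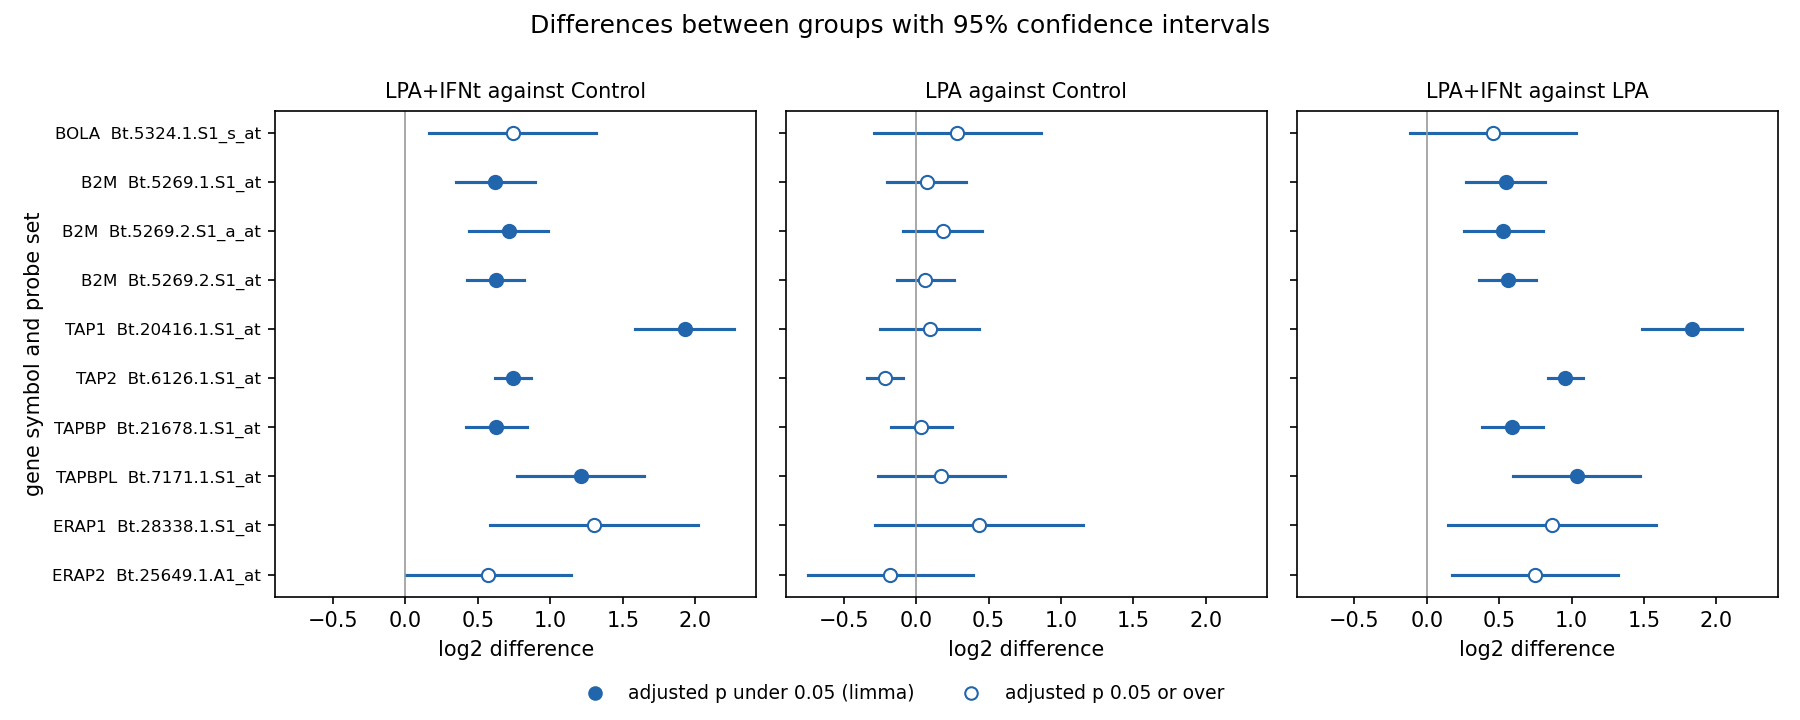
Log2 differences (horizontal axis) of the 10 probe sets in 3 comparisons (LPA+IFNt against Control left, LPA against Control in the middle, LPA+IFNt against LPA right), with 95% intervals from limma; filled points have an adjusted p under 0.05. Filled points number 7 in the left panel, 0 in the middle and 7 on the right, and TAP1 lies farthest to the right in both panels with IFNt.

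LPA on its own changed none of the 10 past the threshold. In LPA against Control 0 of 10 were called (limma), where 0.0708% of all probe sets were called, 0.05% higher and 0.0208% lower. An unadjusted p under 0.05 was held by 1 of the 10 and by 1993 of all 24016 probe sets. With the replicate block 0 of 10 were called as well, where 0.0458% of all probe sets were called. The differences ran from -0.21 to 0.44 with a median of 0.08, and 8 of the 10 were positive. For TAP1 the difference was 0.09 with a 95% interval of -0.25 to 0.44, and for TAPBP it was 0.04 with an interval of -0.17 to 0.25. For ERAP1 the difference was 0.44 with an interval of -0.28 to 1.15, and for BOLA 0.28 with an interval of -0.29 to 0.86, and both intervals span 0.

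TAP2 was the member with the smallest p in this comparison, and it pointed down. All 3 LPA arrays lay below all 3 Control arrays, as groups lay apart for 10% of all probe sets. The difference was -0.21 (SE 0.05, 95% interval -0.34 to -0.09), with an unadjusted p of 0.00392 and an adjusted p of 0.255 in limma. Within replicates 1, 2 and 3 it was -0.26, -0.13 and -0.25.

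The replicates differed in LPA against Control. Across the members the median difference of LPA against Control was 0.12 in replicate 1, -0.035 in replicate 2 and 0.23 in replicate 3, with 8, 3 and 8 positive differences of 10. BOLA differed by 0.42, 0.01 and 0.43, ERAP1 by 0.55, 0.03 and 0.73, and TAPBPL by 0.21, -0.34 and 0.66. Replicate 2 thus stood near 0 for BOLA and ERAP1 and below 0 for TAPBPL, while replicates 1 and 3 had positive values for all 3. Without the 3 arrays numbered 2, a step chosen after seeing the data, BOLA stood at 0.42 and ERAP1 at 0.64, and 0 of 10 members were called. The differences of LPA+IFNt against Control, in contrast, were positive for all members within each replicate number, with medians of 0.71, 0.75 and 0.78.

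**Figure D3:**
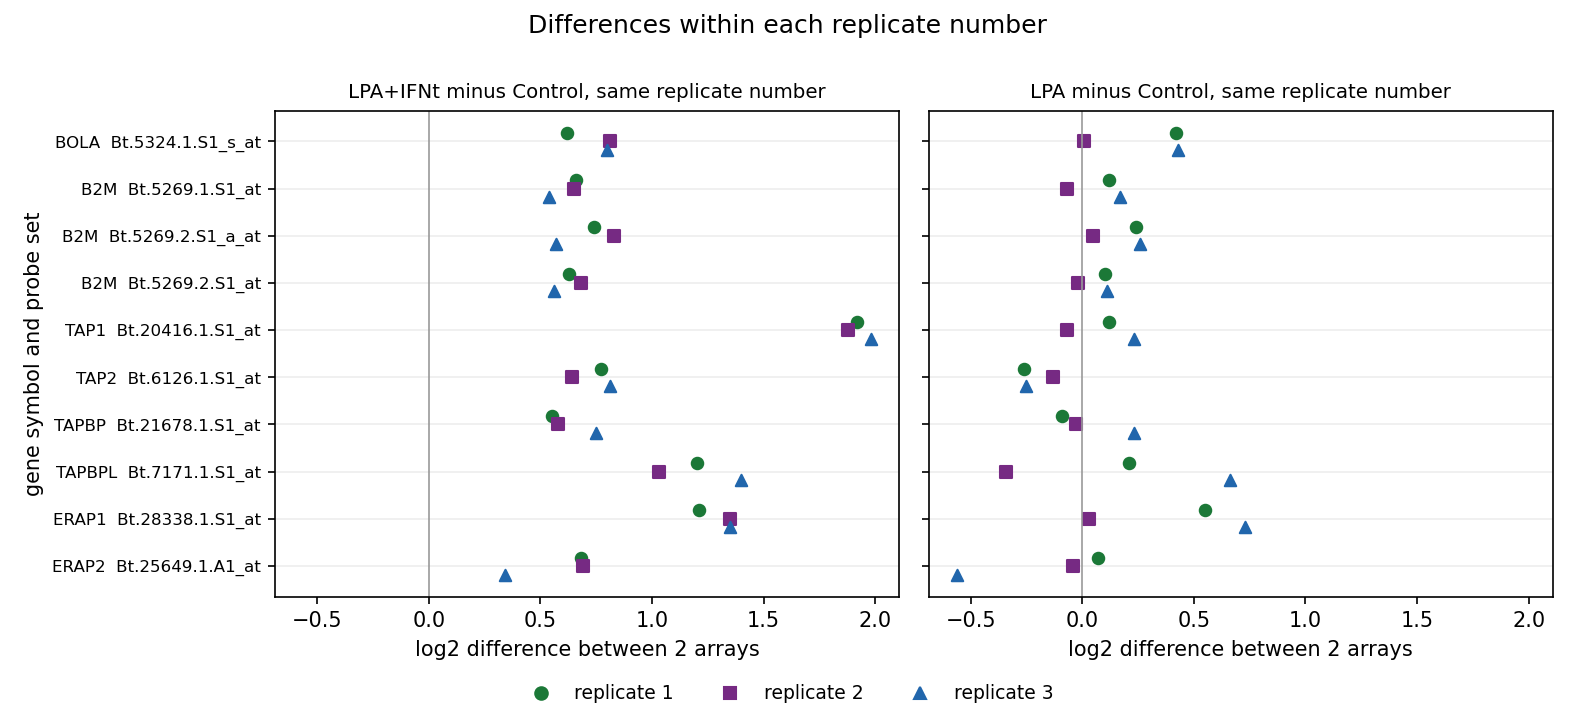
Log2 difference between the 2 arrays of equal replicate number (horizontal axis) for each probe set, LPA+IFNt minus Control on the left and LPA minus Control on the right; symbols mark replicates 1, 2 and 3. All 30 points on the left lie above 0, and on the right the squares of replicate 2 lie between -0.34 and 0.05.

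Class II and leukocyte genes were read on the same arrays. In LPA against Control 0 of 11 class II genes and 0 of 12 leukocyte markers were called, where 0.0708% of all probe sets were called. The class II gene BOLA-DRA had 6.12, 3.58 and 6.51 in LPA replicates 1, 2 and 3, against 4.27, 3.90 and 4.97 in Control. Of the 5 leukocyte markers above the trp level, LPA differed from Control by 0.75 for PTPRC (CD45), 0.59 for LCP1, 0.11 for CD53, 0.06 for CD14 and -0.08 for CD68. The summed level of the 11 measured class II genes, as log2 of the summed linear values, was 9.23, 7.79 and 9.89 in LPA, against 8.28, 7.77 and 8.44 in Control, and that of the 12 measured leukocyte markers was 8.36, 8.19 and 8.55 in LPA, against 8.18, 8.01 and 8.15 in Control. Replicate 2 was the lowest LPA array in both sums and the lowest Control array in both, and it was also the lowest LPA array for BOLA, TAP1, TAPBP, TAPBPL and ERAP1. In LPA+IFNt the leukocyte sum was 7.86, 7.86 and 8.08, and 2 of its arrays lay below every other array. A sum of linear values leans on its brightest markers, and the markers differed. In LPA+IFNt against Control CD14 stood at -0.74 (limma, adjusted p = 0.11) and PTPRC at 0.03. Of the 12 leukocyte markers 1 was called in LPA+IFNt against Control, where 5.34% of all probe sets were called. It was CD53 (limma, adjusted p = 0.0252), which averaged 4.01 in LPA+IFNt, 2.86 in LPA and 2.75 in Control, the last of these below the trp level. The markers CD3E, CD3D, CD2, ITGAM, CD79A, CSF1R and TYROBP lay below the trp level in their mean over the 9 arrays. The part of leukocytes in the members' values was not tested.

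LPA+IFNt also stood above LPA for B2M, TAP1, TAP2, TAPBP and TAPBPL. In that comparison 7 of 10 probe sets rose and 0 fell, where 6.54% of all probe sets were called, 2.56% higher and 3.98% lower. The arrays of the groups did not overlap for 9 of 10, as for 18.7% of all probe sets, and with the replicate block 9 of 10 rose, where 9.66% were called. The median difference was 0.67 and the range 0.46 to 1.83. TAP1 differed by 1.83 (SE 0.15, adjusted p = 0.000328), TAP2 by 0.96 (SE 0.05, adjusted p = 3.42e-05), TAPBPL by 1.03 (SE 0.19, adjusted p = 0.0181) and TAPBP by 0.59 (SE 0.09, adjusted p = 0.0084). The differences of the 3 B2M probe sets were 0.53, 0.54 and 0.56, with adjusted p-values of 0.0392, 0.0358 and 0.00832. ERAP1 (0.86, adjusted p = 0.187) passed only with the replicate block (0.0271). ERAP2 (0.75, adjusted p = 0.149) passed under 2 of the 18 alternative fits described below, among them the block (0.0199). BOLA (0.46, adjusted p = 0.432) did not pass with the block (0.0755). The 2 comparisons with LPA+IFNt share the LPA+IFNt arrays and are not independent of each other. Without LPA replicate 1, LPA+IFNt replicate 1 or LPA+IFNt replicate 3 the count was 4 of 10, since TAPBPL and the B2M probe sets 1.S1_at and 2.S1_a_at then missed the threshold. Both of these B2M probe sets missed it against LPA in 7 of the 9 fits that left out 1 array, all but those without LPA replicate 2 or LPA replicate 3, with adjusted p-values up to 0.117 without LPA+IFNt replicate 1.

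The order of the group means was LPA+IFNt, LPA, Control for 8 of the 10 probe sets, and LPA+IFNt, Control, LPA for TAP2 and ERAP2. LPA and Control, the neighbours in that order, did not differ past the threshold for any member. Within the groups the members shared a pattern over arrays: as a description over 9 arrays whose pools share cows, deviations from the group means correlated with those of TAP1 at r of 0.79 to 0.97 for BOLA, B2M, TAPBP, TAPBPL and ERAP1. For TAP2 and ERAP2 the r was -0.22 and -0.57. Replicate 2 was the lowest array for 8 of 10 probe sets in LPA+IFNt, 8 of 10 in LPA and 6 of 10 in Control. The standard deviation of the members reached 0.63 in LPA, against 0.33 in LPA+IFNt and 0.27 in Control.

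The bovine class I heavy chains are a family of polymorphic genes of near-identical sequence, and BOLA's probe set, whose name ends in _s_at, holds probes that match several transcripts. The array carries 22 further probe sets that the annotation gives to class I heavy chains, 20 of them to several symbols at once and 2 to 1 symbol each, so the 20 cannot be read as single genes. Of these, 11 lay above the trp level. All 11 had positive differences in LPA+IFNt against Control, as did 14240 of all 24016 probe sets. The threshold was passed by 5.34% of all probe sets and by 1 of the 11, whose name ends in A1_x_at. It had 10.29, 10.33 and 10.30 in LPA+IFNt, 9.17, 8.69 and 9.87 in LPA, and 9.11, 8.93 and 9.32 in Control, and differed from Control by 1.19 (SE 0.26, adjusted p = 0.0446). The LPA+IFNt arrays were nearly equal and lay above all others. With the replicate block 6 of the 9 bright probe sets with several symbols were called, where 8.68% of all probe sets were called.

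The probe set with the highest values among them averaged 14.78 ± 0.06 in LPA+IFNt, 14.36 ± 0.28 in LPA and 14.25 ± 0.14 in Control (SD, n = 3 each). Its difference from Control of 0.53 had an adjusted p of 0.0789, or 0.0275 with the replicate block. The widest difference was that of the probe set annotated to both BOLA-N and JSP.1, at 1.78 (SE 0.51, adjusted p = 0.112, or 0.0257 with the block). Its values were 5.96, 6.90 and 5.44 in LPA+IFNt, 4.13, 5.11 and 3.34 in LPA, and 3.89, 4.65 and 4.42 in Control. Here replicate 2 was the highest array of each group, as it was for 3 of the 12 heavy-chain probe sets above the trp level, BOLA's included. For 4 of the 12 replicate 2 was the lowest array of each group, among them that annotated to BOLA-N alone, with 6.39, 6.11 and 6.99 in LPA+IFNt, 6.08, 4.68 and 6.59 in LPA, and 6.00, 4.81 and 5.79 in Control. The heavy-chain probe sets thus did not follow 1 order of the replicates. The BOLA-N probe set differed from Control by 0.96 in LPA+IFNt (adjusted p = 0.425, or 0.0973 with the block), and that annotated to BoLA alone by 1.15 (adjusted p = 0.311, or 0.0693 with the block). The 11 dim probe sets had a median difference of 0.03 with 0 called. In LPA against Control 0 of the 22 were called, where 0.0708% of all probe sets were called.

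**Figure D4:**
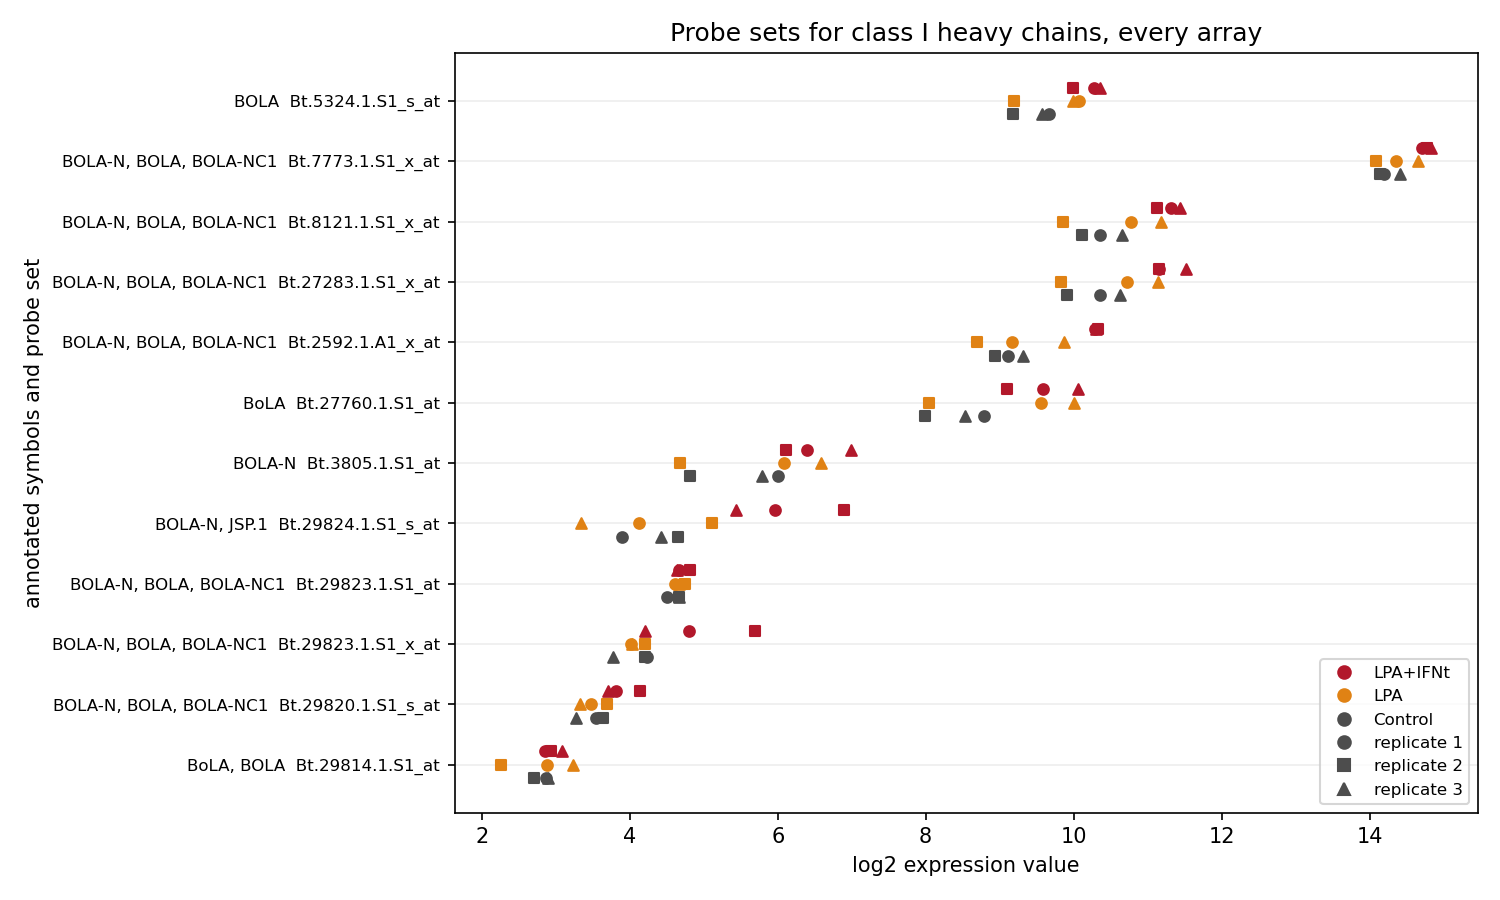
Log2 expression value (horizontal axis) of BOLA and the 11 other class I heavy-chain probe sets above the trp level on every array, LPA+IFNt above, LPA in the middle and Control below in each row; symbols mark replicates. The row of BOLA-N and JSP.1 has replicate 2 highest in each group, and the row of BOLA-N alone has it lowest.

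The proteasome genes that make peptides for the transporter split by type. All 5 measured genes of the immunoproteasome and its activator rose in LPA+IFNt against Control, where 2.48% of all probe sets rose. Their median difference was 1.36. PSMB9, a catalytic subunit that replaces a constitutive one, had 11.49, 11.28 and 11.53 in LPA+IFNt, 9.33, 8.74 and 9.49 in LPA, and 9.27, 8.96 and 9.32 in Control, a difference from Control of 2.25 (SE 0.19, adjusted p = 0.000466). The LPA and Control arrays of PSMB9 overlapped below all of LPA+IFNt. The other exchanged subunits PSMB8 and PSMB10 rose by 1.40 (adjusted p = 0.00278) and 1.36 (adjusted p = 0.0117), and the PA28 activator subunits PSME2 and PSME1 by 0.98 (adjusted p = 0.000992) and 0.65 (adjusted p = 0.000373). Of the constitutive subunits that they replace, PSMB5, PSMB6 and PSMB7, 0 of 3 were called, with a median of -0.05, and PSMB5 had the smallest p (-0.13, adjusted p = 0.341).

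Other steps of the pathway had few calls. Among 5 measured genes of the endoplasmic reticulum, CALR, CANX, PDIA3, HSPA5 and BCAP31, 0 rose and 1 fell. The 1 was PDIA3 (ERp57), the thiol oxidoreductase bound to tapasin. PDIA3 had 11.03, 11.05 and 10.87 in LPA+IFNt, 11.03, 11.05 and 10.98 in LPA, and 11.23, 11.30 and 11.28 in Control. The difference from Control was -0.28 in LPA+IFNt (SE 0.05, adjusted p = 0.0178) and -0.24 in LPA (adjusted p = 0.184), and neither group's arrays overlapped with Control. Among 4 measured cytosolic peptidases, which destroy or shorten peptides before transport, 0 were called, and the smallest p belonged to TPP2 (-0.18, adjusted p = 0.184). These counts stand beside the 5.34% called over all probe sets.

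Of 7 measured transcriptional regulators of MHC genes, 1 was called in LPA+IFNt against Control, where 5.34% of all probe sets were called. RFX5, a subunit of the RFX complex that binds MHC promoters, had 7.80, 7.78 and 8.09 in LPA+IFNt, 7.19, 7.15 and 7.10 in LPA, and 6.81, 7.27 and 7.00 in Control, and rose by 0.86 (SE 0.12, adjusted p = 0.00681). CREB1, which binds the same promoters, had a difference of 0.30 (adjusted p = 0.0792), and the block gave an adjusted p of 0.0235. LPA differed from Control by a like 0.29 for CREB1 (limma, adjusted p = 0.311), and LPA+IFNt differed from LPA by 0.01. NLRC5, RFXAP and IRF1 were not measured by a probe set with 1 symbol. Of 2 measured class I-like genes, MR1, which presents vitamin metabolites to MAIT cells, had 4.66, 4.83 and 5.03 in LPA+IFNt, 3.78, 3.37 and 3.68 in LPA, and 4.03, 4.01 and 4.08 in Control. MR1 rose by 0.80 (SE 0.12, adjusted p = 0.00875), and its LPA arrays lay below Control by -0.43 (adjusted p = 0.343). FCGRT, the neonatal Fc receptor heavy chain, stood at -0.16 (adjusted p = 0.3).

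Of 11 measured MHC class II genes 6 lay above the trp level. In LPA+IFNt against Control 1 of the 11 rose, where 2.48% of all probe sets rose. BOLA-DMB, a subunit of the DM molecule that loads class II and lies between TAP1 and TAPBP in the ARS-UCD2.0 annotation, had 8.15, 7.41 and 8.27 in LPA+IFNt, 6.31, 5.98 and 6.59 in LPA, and 6.12, 5.86 and 6.19 in Control, a rise of 1.89 (SE 0.25, adjusted p = 0.00444). BOLA-DRA, in contrast, overlapped between all groups, with 4.78, 3.72 and 5.96 in LPA+IFNt and 4.27, 3.90 and 4.97 in Control. In LPA against Control 0 genes were called in any of these lists, where 0.0708% of all probe sets were called.

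**Figure D5:**
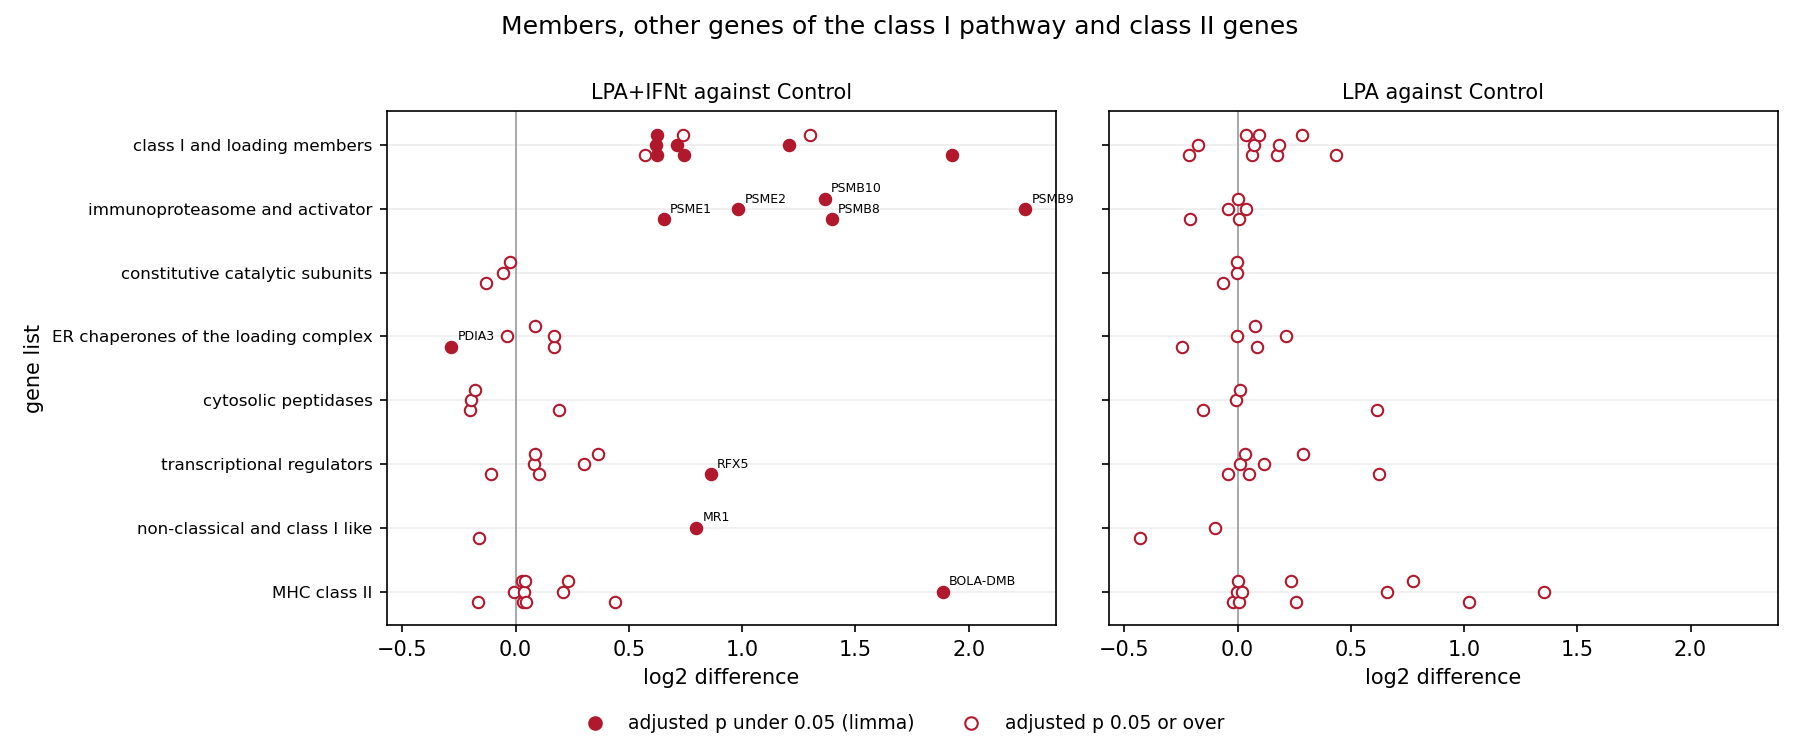
Log2 differences (horizontal axis) of the members and of the genes of each pathway list, LPA+IFNt against Control on the left and LPA against Control on the right; filled points have an adjusted p under 0.05 in limma and are named for the lists. All 5 immunoproteasome genes are filled on the left, from 0.65 for PSME1 to 2.25 for PSMB9, and no point is filled on the right.

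Some stromal markers fell. Of 10, 3 fell in LPA+IFNt against Control, where 2.86% of all probe sets fell. COL3A1 stood at -0.51, COL1A1 at -0.39 and FBN1 at -0.39. Against LPA 5 of 10 fell, where 3.98% of all probe sets fell. The summed stromal level was 16.43, 16.40 and 16.39 in LPA+IFNt, 16.67, 16.64 and 16.75 in LPA, and 16.56, 16.70 and 16.64 in Control. The summed epithelial level was 15.64 to 15.70 in LPA+IFNt, 15.61 to 15.64 in LPA and 15.59 to 15.67 in Control. CDH1 (0.21) was the 1 epithelial marker called in LPA+IFNt against Control, where 5.34% of all probe sets were called. Against LPA 1 of 10 epithelial markers fell, and CDH1 stood at 0.01 without a call. The part of the cell mixture in the class I differences was not tested.

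The genes most like TAP1 over the 9 arrays, by Pearson's r of their brightest probe sets among 9147 genes, were COX7A1 (r = 0.9986), a subunit of cytochrome c oxidase, the immunoproteasome subunit PSMB9 (0.9983), the interferon-inducible GTPase GBP1 (0.9979), PSME2 (0.9972) and the tryptophanyl-tRNA synthetase WARS1 (0.9972). The 9 arrays come from pools that share cows and fall into groups, so these values describe a pattern and were not tested. COX7A1 had 9.58, 9.36 and 9.54 in LPA+IFNt, 7.59, 7.21 and 7.75 in LPA, and 7.48, 7.15 and 7.43 in Control. As with TAP1, replicate 2 was the lowest array of each group. The difference of LPA+IFNt from Control was 2.14 for COX7A1, 4.54 for GBP1, 1.27 for WARS1 and 1.93 for TAP1.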

How the data were processed

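The deposited values were log2 expression values per probe set, made by the authors. Partek and RMA are named in the submitters' processing notes, with no version. RMA makes the distributions of arrays alike. Of 24128 probe sets, 112 Affymetrix controls were left out. Symbols came from the array's annotation, checked by gene identifier against the RefSeq table of ARS-UCD2.0, which held 7 of the 8 member genes. No build is given in the sources used here, so no coordinates are printed.

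The members, gene lists and marker lists were chosen with earlier results of these data known. From each list the text names up to 4 called genes with the widest difference in LPA+IFNt against Control, or the 1 with the smallest p, and other genes named were chosen after their values were seen. A gene stands by its brightest probe set.

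Differences were fitted with limma 3.58.1 in R 4.3.3 on all 9 arrays, with no covariate, two-sided, adjusted by Benjamini-Hochberg within a comparison, at a threshold of 0.05. The fit was tested on simulated data with independent errors and no replicate effect, a simpler setting than these arrays. The number of arrays limits the precision.

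Deviations from group means correlated at 0.1895 to 0.4906 for the 9 pairs of arrays with equal replicate number in the labels, and at -0.4683 to 0.1413 for the 18 pairs with unequal numbers. Deviations in a group cancel out, so positive correlations for equal numbers draw those for unequal numbers down, and the ranges are not independent. The numbers were taken to pair the arrays from these correlations only, as the labels do not state a pairing. The fit with the number as a block is given where it changes a call. Alternatives were single arrays left out, the 6 arrays compared, a filter on dim probe sets, 2 centrings, 2 variance models and averaged probe sets.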

Additional observations from a re-analysis of the deposited data

How the results depend on the processing

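TAP1, TAP2, TAPBP and the B2M probe set ending in 2.S1_at kept their calls in both comparisons with LPA+IFNt under the 17 alternatives listed in the processing and without the 3 arrays numbered 2 (added after seeing the data). TAP1 ranged from 1.85 to 2.02 and TAP2 from 0.71 to 0.79 against Control. TAPBPL kept its call against Control and lost it against LPA under 5 alternatives. The B2M probe sets ending in 1.S1_at and 2.S1_a_at lost theirs under 9 and 10 of the 18 against LPA, and under 5 and 2 against Control. Calls against Control numbered 7 of 10, with 10 under the replicate block, 9 with spike-in centring, 6 without variance moderation and 5 of 8 genes averaged, and 5 to 9 with single arrays left out. Against LPA they numbered 7, with 9 under the replicate block, 4 with only the 6 arrays compared, 4 without variance moderation, and 4 to 7 with single arrays left out. LPA against Control gave 0 under every alternative, although 5 members changed sign without LPA replicate 3. Besides BOLA, ERAP1 and ERAP2, the block changed no member's call. ERAP1 against Control also passed with only the 6 arrays compared (0.0166), the dim filter (0.0246), either centring (0.00955 and 0.0327), the variance trend (0.0258) and without LPA replicate 3 (0.0379), and BOLA with spike-in centring (0.049) and without LPA replicate 2 (0.0365). Over all probe sets, calls numbered 1282 in LPA+IFNt against Control (628 to 2085 under alternatives), 17 in LPA against Control (0 to 169) and 1571 in LPA+IFNt against LPA (901 to 2320). No value that passed the threshold reversed.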
